A study of Mus musculus with 13 samples.

Results

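The Rab genes encode small GTPases that steer vesicle traffic, and their transcripts were followed here in 6 leukocyte populations sorted from the mouse spleen. A gene was taken as a member when the symbol that the array annotation gives it is Rab, a number and at most a letter and a digit. Of the 18194 genes with a probe set annotated to 1 gene, 59 met this rule, and each was represented by its probe set with the highest mean signal over the 13 arrays. A signal of 50 or more on all replicates of at least 1 population, here called detected, was reached by 43 of the 59 Rab genes. The populations were plasmacytoid dendritic cells (pDCs), the 2 conventional dendritic cell (cDC) subsets called CD8α cDCs and CD11b cDCs, NK cells, CD8 T cells (2 arrays each) and B cells (3 arrays). All came from the spleens of wild type, untreated C57BL/6 mice, and spleens of 10 to 15 mice were pooled for each dendritic cell (DC) array, of 6 to 10 mice for each NK array, and of 3 and 2 mice for B cell replicates 1 and 2, whereas B cell replicate 3 and each CD8 T cell array came from 1 mouse. Per the labels, the mice of CD8α cDC replicate 1 and of both CD8 T cell arrays were female and 6 to 8 weeks old, and those of B cell replicates 2 and 3 were male and 6 weeks old. For the other arrays the labels name neither. Per the study's methods, DCs were sorted as lineage-negative cells with CD11c and split by the 120G8 antigen, CD8α and CD11b, and NK cells as NK1.1+ TCRβ- cells, and the labels call the B cells of replicates 2 and 3 follicular.

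A Rab protein cycles between an inactive GDP form and an active GTP form. Exchange factors switch it on at a given membrane, GTPase-activating proteins switch it off, and the active form recruits the effectors that move, tether or fuse vesicles of that compartment. DCs depend on such traffic to take up antigen, to load peptides in endosomes and phagosomes and to bring MHC molecules to the surface, NK cells and CD8 T cells use it to release cytotoxic granules, and pDCs are specialised in the secretion of type I interferon.

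The sorted populations carried transcripts that define them, such as Siglech in pDCs, Xcr1 in CD8α cDCs, Ncr1 in NK cells, Cd79a in B cells and Cd3e in CD8 T cells. Other markers were shared. Ly75 was higher in CD8 T cells (227 and 257) than in CD8α cDCs (174 and 218). The DC marker Itgax was higher in NK cells (2922 and 2933) than in pDCs (1245 and 1409). pDCs also carried Klrd1 (2561 and 2746), below NK cells, and Cd8b1 (1295 and 1088), below CD8 T cells. For CD11b cDCs, Sirpa was highest there (1516 and 1317). Their Itgam (158 and 174) was close to that of NK cells (135 and 162), and their Tlr1 (966 and 946) lay below B cell replicate 1 (1065). The sex-linked transcripts went against the labels on 3 arrays: B cell replicate 2 carried Xist and no Y-linked transcript, and both CD8 T cell arrays carried Y-linked transcripts and no Xist. These 3 arrays were kept, and where a printed difference lost its call or moved by over 1.5 times without them, the value without them is given beside it. All 6 DC arrays carried Xist (1539 to 4503) and no Y-linked transcript, and of the 7 lymphocyte arrays all but B cell replicate 2 carried Y-linked transcripts and no Xist. All DC arrays were scanned in 1 period on chips of 1 lot, NK and B cell arrays in another period and CD8 T cell arrays in yet another, so that differences between DCs and lymphocytes cannot be told apart from this batch, nor, but for B cell replicate 2, from the sex that these transcripts show. Differences between NK and CD8 T cells, in separate scan periods and chip lots, cannot be told apart from their batches either. The ratio of the 3′ to the 5′ GAPDH probe sets, a measure of RNA integrity, was 23.9 and 11.2 on the NK arrays and 3.46 to 6.3 on the others. Between 49.1 and 58.3% of all probe sets of an array lay below a signal of 20. Lower signals were set to 20 before log2 transformation, and where a population lay there, the size of its difference is limited by the floor.

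Of the 43 detected Rab genes, 27 were detected on every array, and 12 set single populations apart (27.9%, against 24.3% of all genes tested). Among all 59 Rab genes, these 27 (45.8%) reached 50 on all 13 arrays, compared with 31.4% of all genes, and 43 (72.9%) did so in at least 1 population, compared with 51.6% of all genes. The number that reached 50 was 31 in pDCs, 36 in CD8α cDCs, 36 in CD11b cDCs, 34 in NK cells, 31 in B cells and 34 in CD8 T cells. The 16 genes that reached it in no population were Rab3b, Rab3c, Rab4a, Rab9b, Rab15, Rab17, Rab20, Rab25, Rab26, Rab33a, Rab34, Rab36, Rab39b, Rab40b, Rab42 and Rab44. Rab20, a phagosomal Rab protein, came closest, with 46.5 and 71.6 in CD11b cDCs, and Rab15 had 40.1 and 51.2 in CD8 T cells. The 43 genes that reached 50 were tested with limma, in 1 model over all 9380 genes that passed the same filter, with p-values adjusted by the Benjamini-Hochberg method over all of them and a threshold of 0.05. Adjusted p-values below are from that fit unless another setting, set of arrays or probe set is named. Differences are on the log2 scale with their standard error (SE), and the spread is that between the arrays of a population, which the series describes as independent replicates. In bulk samples, fewer cells that use a gene and less of its RNA per cell cannot be told apart.

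The means of the 6 populations differed for 35 of the 43 Rab genes by limma's F test (81.4%), a share close to the 82.8% of all genes tested. The median span between the highest and the lowest population mean was 1.49 over the 43 Rab genes and 1.52 over all genes. By place in the cell, the F test called 10 of the 12 detected genes of the endoplasmic reticulum (ER) and Golgi, 6 of 6 of early endosomes, 6 of 10 of recycling endosomes and transport to the surface, 6 of 7 of late endosomes, lysosomes and related organelles, 5 of 5 of regulated secretion and 2 of 3 others. The 8 genes without a call were Rab6a, Rab8a, Rab9, Rab11b, Rab12, Rab18, Rab35 and Rab40c. Of the genes with a call, Rab7b, Rab32 and Rab30 spanned over 5 log2 units, and Rab1a, Rab5a, Rab7, Rab10, Rab14, Rab21 and Rab28 under 1.

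**Figure D1:**
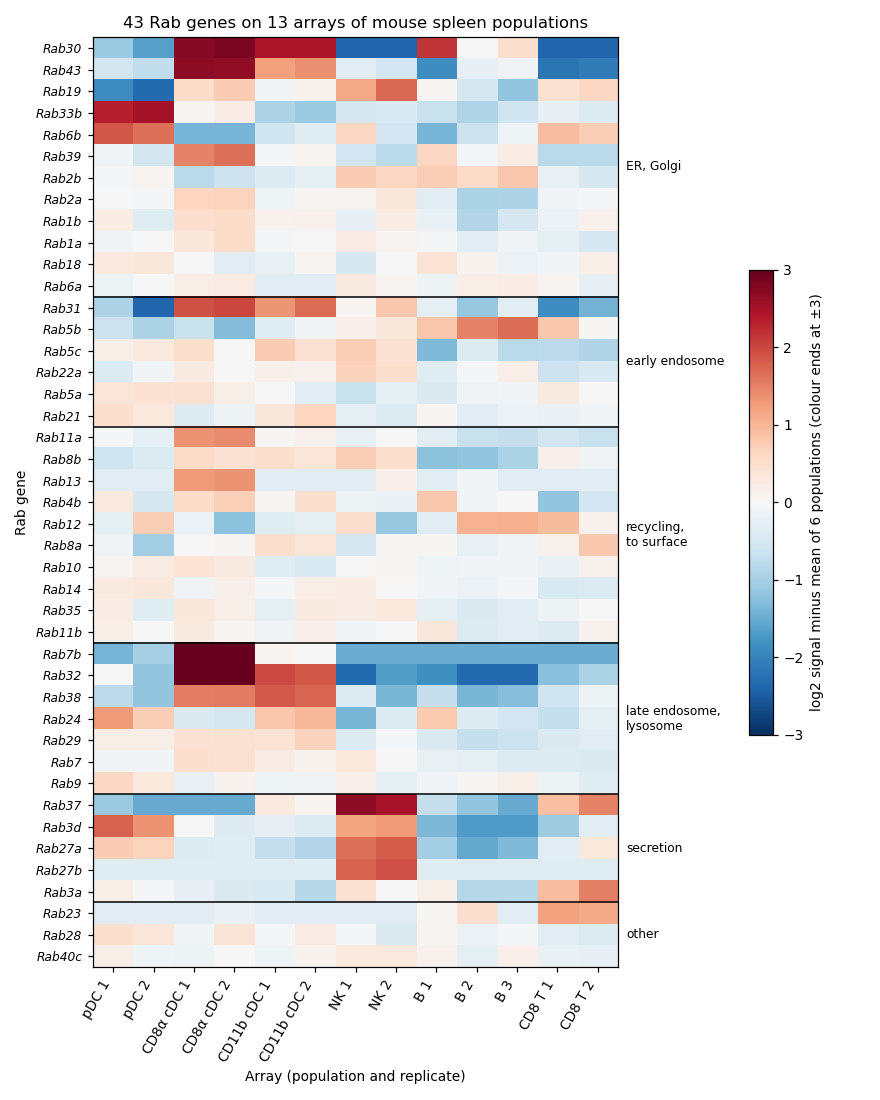
Rows are the 43 Rab genes that reached a signal of 50, grouped by place in the cell, and columns are the 13 arrays. Colour gives the log2 signal minus the mean of the 6 population means (red higher, blue lower), and the deepest red in both CD8α cDC arrays marks Rab7b and Rab32.

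DCs carried more of many Rab transcripts than lymphocytes did. The mean of the 3 DC populations was above that of the 3 lymphocyte populations for 24 of the 43 Rab genes (55.8%), with a background of 31.3% of all genes tested, and below it for 7 (16.3%), with a background of 32.3%. The median difference was 0.30 over the 43 Rab genes and -0.02 over all genes tested. The largest differences upwards were those of Rab32, 3.52 ± 0.20 (adjusted p = 9e-08), Rab7b, 2.97 ± 0.09 (adjusted p = 7.24e-10), and Rab30, 2.57 ± 0.29 (adjusted p = 2.01e-05). Downwards they were those of Rab37, -1.76 ± 0.15 (adjusted p = 2.8e-06), Rab5b, -1.34 ± 0.19 (adjusted p = 0.000108), and Rab19, -0.96 ± 0.20 (adjusted p = 0.00161). All 6 late endosomal and lysosomal genes with a call (Rab32, Rab7b, Rab38, Rab24, Rab29 and Rab7) were higher in DCs, as were the 5 recycling genes with a call (Rab11a, Rab4b, Rab13, Rab8b and Rab14), while 3 of the 4 secretory genes with a call were lower (Rab37, Rab27b and Rab3a). Rab27b passed the filter only through NK cells, Rab23 only through CD8 T cells and Rab5b only through lymphocytes. Rab32, Rab7b and Rab38 passed it only through cDC subsets, and Rab13 and Rab39 only through CD8α cDCs. For these genes the direction was set in part by the filter. Rab3a lost its call without the 3 arrays that went against their labels (-0.25, adjusted p = 0.342). Few of these differences separated every array: only Rab7b and Rab29 had all 6 DC arrays above all 7 lymphocyte arrays, and only Rab5b had them all below, where 5.78 and 5.6% of all genes did so. Without both CD8 T cell arrays and B cell replicate 2, 17 Rab genes were higher and 6 lower, in a fit of 9153 genes. With a term for the 2 sets that the sample names form, 12 were higher and 7 lower. B cell replicate 1 shares its set with the DC and NK arrays, and the other B cell replicates with the CD8 T cell arrays. The term was thus estimated from the B cell arrays alone. No share of all genes is given for either setting, so whether the excess over all genes remained is not shown.

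**Figure D2:**
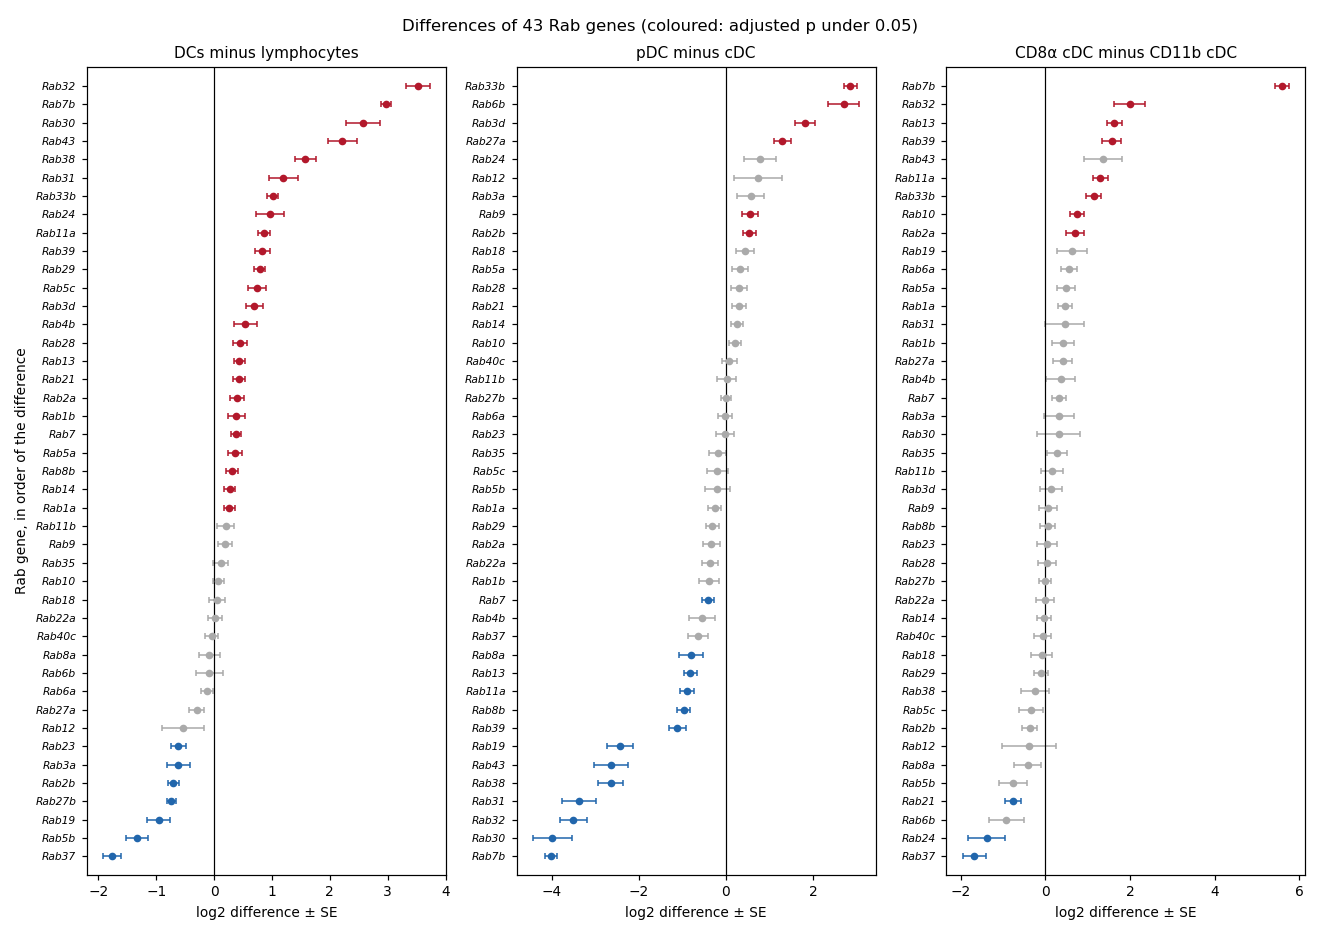
Each point is the log2 difference of a Rab gene with its SE, for DCs minus lymphocytes (left), pDCs minus cDCs (middle) and CD8α minus CD11b cDCs (right), with genes in the order of the difference in each panel. Coloured points passed the limma test, and Rab7b, at 5.59, stands far to the right of the other genes in the right panel.

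Among the DCs, the cDC subsets stood above pDCs for more Rab genes than the reverse. Against the mean of both cDC subsets, pDCs were higher for 6 of the 43 Rab genes (background 17.7% of all genes tested) and lower for 13 (30.2%, background 19.1%). Every pDC array was above every cDC array for 9 Rab genes (background 23.8%) and below for 14 (background 23.5%). Between the cDC subsets, 8 Rab genes were higher in CD8α cDCs (18.6%, background 8.96%) and 3 in CD11b cDCs (6.98%, background 10.6%). Rab7b, Rab32 and Rab38 passed the filter only through cDC subsets, and Rab13 and Rab39 only through CD8α cDCs. These genes are among those lower in pDCs, and Rab13 and Rab39 among those higher in CD8α cDCs. In these comparisons their direction was set in part by the filter. Both CD8α cDC arrays were above both CD11b cDC arrays for 20 Rab genes (background 31.7%) and below for 8 (background 32.4%). On 1 scan day there were 5 DC arrays, of which 1 was of CD11b cDCs, so counts of calls are not given. Differences on that day were -4.00 for Rab7b and 2.90 for Rab33b in pDCs minus cDCs. In CD8α minus CD11b cDCs they were 5.63 for Rab7b and -1.56 for Rab37. The 3 genes higher in CD11b cDCs were Rab37, Rab24 and Rab21, and leaving out CD8α cDC replicate 1 or CD11b cDC replicate 2 left 1.

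Among lymphocytes, NK cells carried more of several Rab transcripts than CD8 T cells. NK cells were higher for 13 of the 43 Rab genes (30.2%, background 21.5%) and lower for 2 (4.65%, background 16.6%), Rab23 and Rab3a. Rab23 passed the filter only through CD8 T cells, and Rab27b, among the higher genes, only through NK cells. Both NK arrays were above both CD8 T cell arrays for 20 Rab genes (background 38.2%) and below for 8 (background 30.4%). NK cells were higher for 7 and lower for 4 with a term for the 2 sets that the sample names form, and higher for 6 and lower for 4 with the mean of all probe sets of a gene. The term was estimated from the B cell arrays alone, and Rab27a and Rab27b did not pass the filter with that mean. No share of all genes is given for these settings. Without CD8 T cell replicate 2, 8 were higher, and the comparison rests on the CD8 T cell arrays whose transcripts went against their label, so it has no value without them. B cells were higher than the mean of NK and CD8 T cells for 5 Rab genes (background 17.7%) and lower for 10 (23.3%, background 20.1%), and 5 of the 10 were the secretory genes. Of these secretory genes, Rab27b passed the filter only through NK cells, with B and CD8 T cells both at the floor. Rab3a lost its call without the 3 arrays that went against their labels (-0.58, adjusted p = 0.217). All B cell arrays were above all NK and CD8 T cell arrays for 4 Rab genes (background 13.6%) and below for 9 (background 12.8%). Without both CD8 T cell arrays and B cell replicate 2, 3 were higher and 8 lower, with no share of all genes given. On the 4 NK and B cell arrays of 1 scan day, limma called 5 lower in B cells than in NK cells (background 6.42%) and 0 higher (background 4.37%), and at an unadjusted p under 0.05 the counts were 9 (background 18%) and 2 (background 14.5%).

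One population stood above each of the others in limma's pairwise tests for 12 Rab genes (27.9%, background 24.3%). CD8α cDCs did so for 5 (Rab7b, Rab32, Rab39, Rab11a and Rab13; background 4.09%), NK cells for 3 (Rab37, Rab27a and Rab27b; background 5.78%), CD8 T cells for 2 (Rab3a and Rab23; background 4.18%), pDCs for 1 (Rab33b; background 4.65%) and B cells for 1 (Rab5b; background 2.76%). CD11b cDCs did so for 0 of the 43 by limma, with a background of 2.87%, and also for 0 at an unadjusted p under 0.05, with a background of 3.69%. Rab13, Rab23, Rab27b and Rab39 passed the filter only through the population where they were high, so that they had to differ. Rab3a and Rab23 rest on the CD8 T cell arrays, whose transcripts went against their label.

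**Figure D3:**
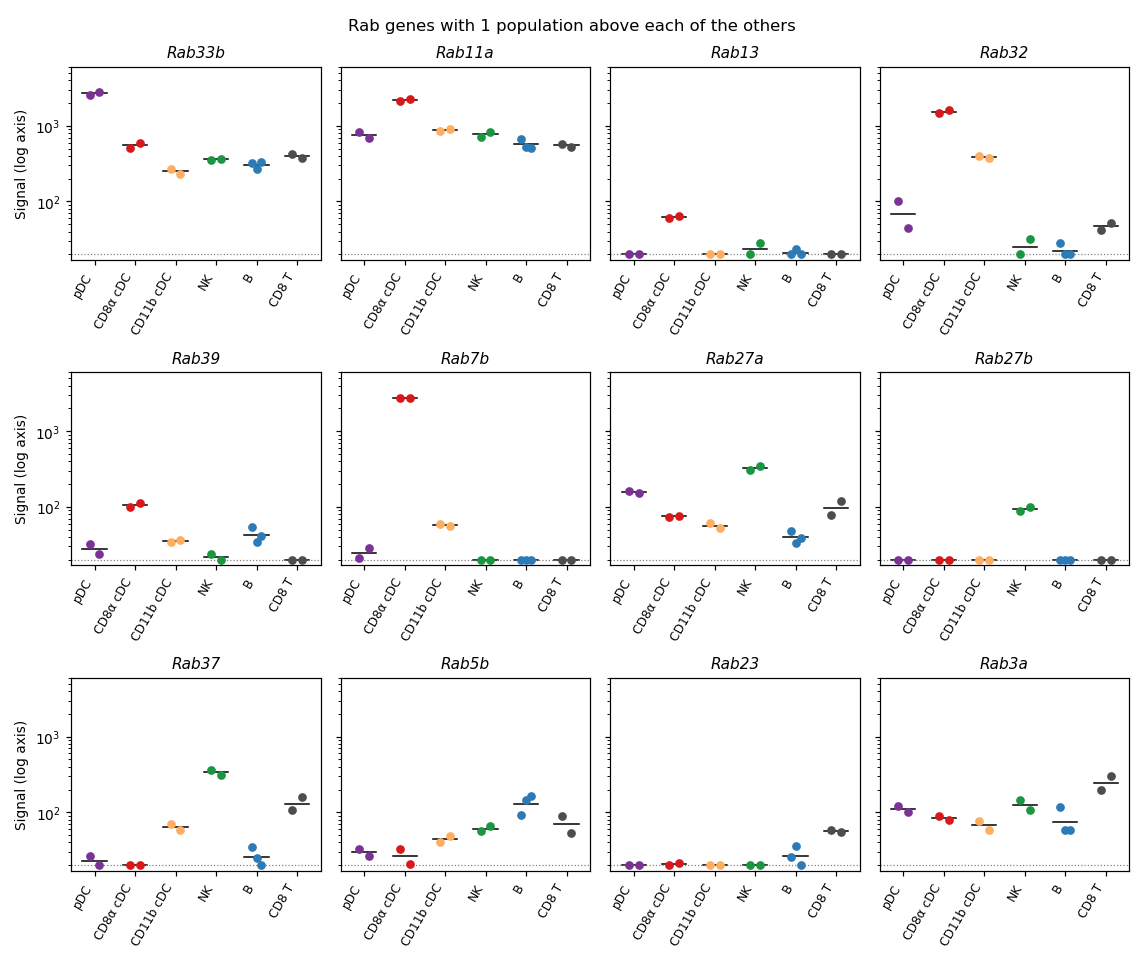
Each panel shows the signal of 1 Rab gene on the 13 arrays (points, log axis, values below the floor of 20 drawn at the dotted line) with the geometric mean of each population (bar). The panels run from the gene highest in pDCs (Rab33b) through those of CD8α cDCs, NK cells and B cells (Rab5b) to those of CD8 T cells (Rab23 and Rab3a).

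The Rab genes of late endosomes and lysosomes were led by Rab7b, which encodes a relative of Rab7 that works in traffic from endosomes to the Golgi. Its signals were 21.2 and 28.3 in pDCs, 2779.7 and 2725 in CD8α cDCs, 58.8 and 55.6 in CD11b cDCs, 4.77, 1.39 and 5.49 in B cells, 15.2 and 16.5 in NK cells, and 2.54 and 3.22 in CD8 T cells. Both CD8α cDC arrays were thus far above all others, whose highest signal was 58.8. The difference from CD11b cDCs was 5.59 ± 0.16 (adjusted p = 7.51e-09) and that from pDCs 6.81 (adjusted p = 8.08e-10), so among the DCs 1 of 3 subsets carried the high level. The other 2 probe sets of the gene had a mean of 1534 and 127 in CD8α cDCs and of at most 35.1 and 13.8 in any other population. Differences of further probe sets, here and below, come from a separate fit. It held all probe sets annotated to 1 Rab gene, beside the other genes tested with 1 probe set each. Rab32, which serves the biogenesis of lysosome-related organelles, had signals of 103 and 44.7 in pDCs, 1474 and 1614 in CD8α cDCs, 402 and 371 in CD11b cDCs, 28.4, 7.01 and 5.64 in B cells, 18.1 and 31.8 in NK cells, and 42.2 and 52.6 in CD8 T cells. CD8α cDCs exceeded CD11b cDCs by 2.00 ± 0.36 (adjusted p = 0.00246), and CD11b cDCs exceeded pDCs by 2.51 (adjusted p = 0.000295). The low signals of pDCs, 103 and 44.7, were not told apart from those of CD8 T cells by the same test (0.52, adjusted p = 0.271).

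Rab38, the close relative of Rab32 in lysosome-related organelles such as melanosomes, was shared by both cDC subsets. It had 151 and 152 in CD8α cDCs and 186 and 173 in CD11b cDCs, whereas the other populations lay between 2.42 and 46.5. The difference of pDCs minus cDCs was -2.65 ± 0.28 (adjusted p = 2.85e-05), and the cDC subsets differed by -0.24 ± 0.33 (adjusted p = 0.699). The second probe set of Rab38 gave -2.56 (adjusted p = 4.69e-06) for pDCs minus cDCs. Rab24, linked to autophagy, was highest in pDCs (674 and 469) and CD11b cDCs (502 and 553), against 206 and 199 in CD8α cDCs. The 4 high arrays did not overlap with those of CD8α cDCs, but the call for the lower level in CD8α than in CD11b cDCs, -1.38 ± 0.43 (adjusted p = 0.0473), was lost under 21 of 29 alternative settings, among them that without the 3 arrays that went against their labels (-1.38, adjusted p = 0.0668). Its second probe set gave -1.07 (adjusted p = 0.132). Rab9, an X-linked gene whose product returns mannose 6-phosphate receptors to the Golgi, had 556 and 449 in pDCs and between 280 and 408 elsewhere. The F test did not call it, and its difference between pDCs and cDCs was 0.56 ± 0.18 (adjusted p = 0.0319) and lost its call under 7 of 29 alternative settings. Without pDC replicate 1 it was 0.40 (adjusted p = 0.212), and without the 3 arrays that went against their labels, none of which is a DC array, it was the same 0.56 with an adjusted p of 0.0542. The macrophage and monocyte transcripts (9 genes) summed to 4962 and 5477 on the CD11b cDC arrays and to 85.2 to 922 on all others. Csf1r (3187 and 3473) and Adgre1 (1300 and 1505) led this sum, and C1qa, C1qb, C1qc and Spic were also highest in CD11b cDCs. Vcam1 was higher in CD8α cDCs (170 and 171) than in CD11b cDCs (75.9 and 84.2). Cd14 was highest in pDC replicate 1 (149). Cd5l was at 4.88 and 15.8 in CD11b cDCs and at 6.13 to 29 on the other arrays. The part of these transcripts in the CD11b cDC signals of Rab32, Rab38, Rab24 and Rab31 was not tested.

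The ER and Golgi genes with a call had their highest signals in different populations. Rab43, a Golgi Rab protein known for its part in cross-presentation by CD8α cDCs of mice, had signals of 281 and 246 in pDCs, 2674 and 2604 in CD8α cDCs, 979 and 1077 in CD11b cDCs, 113, 352 and 384 in B cells, 333 and 280.4 in NK cells, and 90.6 and 96.5 in CD8 T cells. The cDC arrays were the 4 highest, and pDCs lay -2.65 ± 0.39 (adjusted p = 0.000319) from cDCs. The step from CD11b to CD8α cDCs, 1.36 ± 0.46 (adjusted p = 0.0613), did not pass the threshold although the arrays did not overlap, and 1 of the other 2 probe sets passed it (1.13, adjusted p = 0.0151). B cell replicate 1 had about the level of CD8 T cells and the other B cell replicates more, so that the B cell arrays spread more widely than those of the other populations. Both further probe sets of Rab43 were also lower in pDCs than in cDCs, with -2.59 (adjusted p = 2e-04) and -1.04 (adjusted p = 0.00571). Rab30, which helps to keep the structure of the Golgi, had 48.2 and 33.6 in pDCs, 689 and 736 in CD8α cDCs, 572 and 572 in CD11b cDCs, 464, 105 and 151 in B cells, 1.75 and 13.4 in NK cells, and 0.387 and 1.04 in CD8 T cells. Both cDC subsets were high and 0.32 ± 0.52 (adjusted p = 0.763) apart, NK and CD8 T cells were below the floor, and pDCs minus cDCs gave -3.99 ± 0.45 (adjusted p = 3.93e-05). B cells exceeded NK and CD8 T cells by 3.28 ± 0.40 (adjusted p = 6.95e-05). This difference was 2.66 without B cell replicate 1, whose signal was the highest of the 3. The same array carried Jchain, a gene of plasma cells, at 7866, against 92.1 and 332 on the other B cell arrays, and the neutrophil gene S100a8 at 438, against 27.2 and 128. Of the other plasma cell genes, Xbp1 was at 1681 on that array, against 533 and 639, Sdc1 at 82.8, against 182 and 241, and Prdm1 at 39.6, against 36 and 47.3. The 4 plasma cell transcripts summed to between 842 and 9669 on the B cell arrays, and the 4 neutrophil transcripts to between 92.7 and 1194. Their part in the B cell signals of Rab30, Rab4b, Rab24 and Rab43 was not tested.

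Rab33b, a Golgi Rab protein that also binds the autophagy machinery, was the member that set pDCs apart. Its signals were 2530.2 and 2838 in pDCs, 515 and 592 in CD8α cDCs, 267 and 233 in CD11b cDCs, 318, 269 and 334 in B cells, 357 and 366 in NK cells, and 429 and 381 in CD8 T cells. Both pDC arrays stood above every other array, and the difference from cDCs was 2.85 ± 0.15 (adjusted p = 1e-07). pDCs exceeded the next population, CD8α cDCs, by 2.28 (adjusted p = 1.95e-06), and these exceeded CD11b cDCs, the lowest, by 1.15 ± 0.17 (adjusted p = 0.000691). Rab6b, the form of the Golgi protein Rab6 known from neurons, was also higher in pDCs than in cDCs, with 194 and 166 in pDCs, 7.65 and 11.7 in CD8α cDCs and 35 and 41.1 in CD11b cDCs (2.70 ± 0.36, adjusted p = 0.000133). Of its 2 other detected probe sets, 1 gave 2.37 (adjusted p = 2.47e-06) and the other 0.46 (adjusted p = 0.208). CD8 T cells were the next population, with 101 and 87.9, and were not set apart from pDCs by the test (0.93, adjusted p = 0.0931). Rab19, a little studied Golgi relative, ran the other way. It had 44.2 and 32.6 in pDCs, 238 and 276 in CD8α cDCs, 154 and 176 in CD11b cDCs, 173, 113 and 71.7 in B cells, 360.0 and 534 in NK cells, and 225 and 252 in CD8 T cells. pDCs were thus the lowest population and NK cells the highest, with differences of -2.44 ± 0.31 (adjusted p = 9.08e-05) for pDCs minus cDCs and -1.53 ± 0.27 (adjusted p = 0.0011) for B cells minus the other lymphocytes. NK cells did not exceed CD8α cDCs by the pairwise test (0.78, adjusted p = 0.0907).

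Rab39 joined the genes of CD8α cDCs at a low level. It had 98.8 and 112 there, 54.3, 34.5 and 40.9 in B cells, 34 and 37 in CD11b cDCs, and at most 32.8 in pDCs, NK cells and CD8 T cells. CD8α cDCs exceeded CD11b cDCs by 1.57 ± 0.23 (adjusted p = 0.000584) and B cells by 1.31 (adjusted p = 0.000432), and no array of another population reached their level. Rab2b, which like Rab2a acts between the ER and the Golgi, was highest in B cells (289.7, 257 and 305) and NK cells (293 and 269) and lowest in CD8α cDCs (98.9 and 114). DCs minus lymphocytes gave -0.70 ± 0.09 (adjusted p = 7.75e-05), which was -1.08 without the 3 arrays that went against their labels, NK cells exceeded CD8 T cells by 1.03 ± 0.17 (adjusted p = 0.000845), and pDCs exceeded cDCs by 0.53 ± 0.15 (adjusted p = 0.0147). The B cell excess over NK and CD8 T cells, 0.53 ± 0.13 (adjusted p = 0.00758), was 0.08 (adjusted p = 0.747) without the 3 arrays that went against their labels. Rab1a, Rab1b, Rab2a, Rab6a and Rab18 were detected on every array, with spans of at most 1.39.

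The promoters of 4 members whose pattern marked 1 population are printed from RefSeq (GRCm38.p6), 250 bases before to 50 bases after the gene start, so that the genes which stood out together in CD8α cDCs can be read beside the gene of pDCs. The table used held a promoter for 48 of the 59 Rab genes and for 9 of the 12 with 1 population above the others, 5 of them with a single start. Of these 5, the 4 shown are 3 of CD8α cDCs (Rab32, Rab39 and Rab11a) and that of Rab33b, chosen after their values were seen because their population stood above the others in at least 26 of 28 alternative settings. Rab5b, with 12 of 28, is not shown. Capitals mark matches, on either strand, to 3 motifs: the GC box GGGCGG, the CCAAT box CCAAT and the ETS motif CCGGAAG, whose matches on opposite strands can overlap. The matches are a description of letters and not binding sites.
Rab32, chr10:10558158-10558457, minus strand: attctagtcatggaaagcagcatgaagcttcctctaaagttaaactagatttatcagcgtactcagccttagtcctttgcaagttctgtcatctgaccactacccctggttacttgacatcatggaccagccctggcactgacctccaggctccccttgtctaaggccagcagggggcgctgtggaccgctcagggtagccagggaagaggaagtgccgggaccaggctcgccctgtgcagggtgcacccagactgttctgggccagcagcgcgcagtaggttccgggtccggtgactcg
Rab39, chr9:53706183-53706482, minus strand: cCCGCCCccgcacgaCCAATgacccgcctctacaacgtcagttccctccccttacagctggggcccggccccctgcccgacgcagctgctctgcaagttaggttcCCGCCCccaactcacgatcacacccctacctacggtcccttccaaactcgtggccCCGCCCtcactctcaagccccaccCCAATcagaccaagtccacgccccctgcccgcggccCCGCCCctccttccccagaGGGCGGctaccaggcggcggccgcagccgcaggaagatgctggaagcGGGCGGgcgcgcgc
Rab11a, chr9:64737707-64738006, minus strand: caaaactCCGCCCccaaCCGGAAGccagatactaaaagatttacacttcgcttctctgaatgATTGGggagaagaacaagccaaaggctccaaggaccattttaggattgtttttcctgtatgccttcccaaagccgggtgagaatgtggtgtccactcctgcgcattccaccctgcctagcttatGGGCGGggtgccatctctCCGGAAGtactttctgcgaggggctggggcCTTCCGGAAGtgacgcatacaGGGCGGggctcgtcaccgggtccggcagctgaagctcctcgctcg
Rab33b, chr3:51483716-51484015, plus strand: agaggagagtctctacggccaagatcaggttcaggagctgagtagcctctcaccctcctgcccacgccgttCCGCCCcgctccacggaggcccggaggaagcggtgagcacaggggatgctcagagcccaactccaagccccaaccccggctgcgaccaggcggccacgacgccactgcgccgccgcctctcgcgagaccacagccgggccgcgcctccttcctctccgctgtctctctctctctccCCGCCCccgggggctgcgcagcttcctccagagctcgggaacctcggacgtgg

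No motif was in all 3 of the printed promoters of CD8α cDC genes. Rab39 held 6 GC boxes and 2 CCAAT boxes, Rab11a held 3 GC boxes, 1 CCAAT box and 4 ETS motifs, of which 2 overlap on opposite strands, and Rab32 held no match. Rab33b held 2 GC boxes, and the promoter of Rab5b 2 GC boxes and 4 CCAAT boxes. The table held 60 promoters of Rab genes, since some have several starts, of 32851 in all. A GC box was in 41 of the 60 (68.3%) and in 35.7% of all promoters, a CCAAT box in 43.3 and 37.4%, and an ETS motif in 8.33 and 8.86%. The bases G and C made up 57.3% of the Rab32, 70.7% of the Rab39, 56.3% of the Rab11a and 70% of the Rab33b promoter, compared with a median of 52.7% over all promoters.

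Rab31 had the widest span of the early endosomal genes. The protein, also called Rab22b, acts between the trans-Golgi and early endosomes. Its signals were 55.2 and 20 in pDCs, 392 and 416 in CD8α cDCs, 259 and 331 in CD11b cDCs, 84.7, 47.3 and 83.2 in B cells, 107 and 183 in NK cells, and 28.8 and 39.1 in CD8 T cells. The cDC arrays were the 4 highest, the subsets differed by 0.46 ± 0.45 (adjusted p = 0.564), and pDCs minus cDCs gave -3.37 ± 0.39 (adjusted p = 5.25e-05). NK cells exceeded CD8 T cells by 2.06 ± 0.45 (adjusted p = 0.00497). The difference between DCs and lymphocytes, 1.20 ± 0.26 (adjusted p = 0.00191), was 0.54 (adjusted p = 0.132) without the 3 arrays that went against their labels. The 3 forms of Rab5, the main Rab protein of early endosome fusion, were ordered differently. Rab5a was at 441 or more on all arrays, and its highest population was pDCs (894 and 947). Rab5c had its lowest signals in B cells (57.1, 108 and 81.1) and CD8 T cells (82 and 76.7), against 236 and 193 in NK cells, which exceeded CD8 T cells by 1.43 ± 0.28 (adjusted p = 0.00285). Rab5b had 32.8 and 26.7 in pDCs, 32.7 and 20.9 in CD8α cDCs, 40.1 and 48.7 in CD11b cDCs, 91.6, 146 and 164 in B cells, 57.2 and 65.4 in NK cells, and 89.9 and 53.3 in CD8 T cells. B cells were highest in the mean, but replicate 1 (91.6) was close to CD8 T cell replicate 1 (89.9), and B cells stood above each other population in 12 of 28 alternative settings. The second probe set of Rab5b, which reached 50 in no population, was higher in DCs than in lymphocytes (0.40, adjusted p = 0.00686), opposite to the first (-1.34). Rab21, which serves integrin traffic, was higher in CD11b cDCs (889.5 and 1103) than in CD8α cDCs (539 and 630.5), by -0.77 ± 0.19 (adjusted p = 0.0151) for CD8α minus CD11b cDCs.

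Among the recycling genes, Rab11a, the Rab protein of the recycling endosome, was present everywhere and highest in 1 population. Its signals were 825 and 684 in pDCs, 2142 and 2237 in CD8α cDCs, 858 and 917 in CD11b cDCs, 678, 529 and 516 in B cells, 719 and 833 in NK cells, and 578 and 532 in CD8 T cells. Both CD8α cDC arrays were at 2142 or more and no other array exceeded 917. The difference between CD8α and CD11b cDCs was 1.30 ± 0.19 (adjusted p = 0.000453), and CD11b cDCs, the next population, were not told apart from NK cells by the test (0.20, adjusted p = 0.424). The second probe set of Rab11a gave 1.07 (adjusted p = 0.0297) between the cDC subsets but 0.13 (adjusted p = 0.753) between pDCs and cDCs, where the first gave -0.89. Rab13, known from junction proteins of epithelia, had 60.6 and 63.6 in CD8α cDCs and at most 27.9 on the other arrays, a difference of 1.63 ± 0.18 (adjusted p = 7.04e-05) between the cDC subsets. Rab8b, which acts in transport to the surface, separated 2 groups of populations. It had 852 and 975 in pDCs, 1925 and 1730.0 in CD8α cDCs, 1857 and 1652 in CD11b cDCs, 551, 563 and 669 in B cells, 2144 and 1849.8 in NK cells, and 1435 and 1198 in CD8 T cells. B cells and pDCs were the low populations, with -1.45 ± 0.14 (adjusted p = 1.06e-05) for B cells minus other lymphocytes and -0.97 ± 0.16 (adjusted p = 0.00054) for pDCs minus cDCs, and no array of either reached the lowest of the other 4 populations. Rab4b, of fast recycling from early endosomes, had 844, 459 and 483 in B cells and 214 and 327 in CD8 T cells. The B cell excess over other lymphocytes, 0.77 ± 0.26 (adjusted p = 0.0413), was lost under 13 of 28 alternative settings, among them those without B cell replicate 1 (0.49, adjusted p = 0.126), without both CD8 T cell arrays (0.42, adjusted p = 0.316) and without the 3 arrays that went against their labels (0.58, adjusted p = 0.214).

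NK cells stood above each other population for 3 of the 5 detected secretory genes, Rab27a, Rab27b and Rab37. Of these, Rab27b passed the filter only through NK cells. With the mean of all probe sets of a gene, Rab27a and Rab27b did not pass the filter and were not tested. With a term for the 2 sets that the sample names form, NK cells were not set above the others for Rab37 (NK minus CD8 T cells 0.75, limma adjusted p = 0.134). This term was estimated from the B cell arrays alone. Rab27a, which docks cytotoxic granules at the membrane and is mutated in Griscelli syndrome, had 164 and 155 in pDCs, 74.6 and 75.5 in CD8α cDCs, 60.5 and 52.8 in CD11b cDCs, 47.7, 33.8 and 39 in B cells, 308 and 343 in NK cells, and 78.5 and 120.4 in CD8 T cells. NK cells were highest and pDCs next, 1.03 (adjusted p = 0.00381) apart, and pDCs exceeded cDCs by 1.29 ± 0.20 (adjusted p = 0.000371). B cells were the lowest, with -2.16 ± 0.17 (adjusted p = 2.71e-06) for B cells minus NK and CD8 T cells. Its relative Rab27b, of platelets and other secretory cells, had 88 and 98.7 in NK cells and at most 14.9 on every other array. NK cells exceeded CD8 T cells by 2.22 ± 0.14 (adjusted p = 8.88e-07), measured against a population at the floor. Platelet transcripts (5 genes) summed to 183 and 235 on the NK arrays and to 44.3 to 109 on the others. On the NK arrays Gp1bb was at 111 and 124 and Pf4 at 28.9 and 49.6, above all other arrays (at most 36.5 and 25.8), Ppbp was at 3.98 and 26.6, Itga2b at 38 and 33, and Gp9 at 1.39 and 1.73. The part of platelets in the Rab27b signal was not tested.

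Rab37, found on secretory granules of mast cells, was likewise higher in NK than in CD8 T cells. It had 26.2 and 13.3 in pDCs, 10.6 and 8.11 in CD8α cDCs, 69.6 and 58.8 in CD11b cDCs, 34.4, 24.9 and 13 in B cells, 365 and 314 in NK cells, and 106 and 159.6 in CD8 T cells. NK cells exceeded CD8 T cells by 1.38 ± 0.28 (adjusted p = 0.00292), and CD11b cDCs stood above CD8α cDCs, whose signals were below the floor, with -1.68 ± 0.28 (adjusted p = 0.00129) for CD8α minus CD11b cDCs. The second probe set of Rab37 had a mean of 74.9 in NK and of 76 in CD8 T cells, a difference of -0.01 that was not called. Rab3d, of granule secretion in exocrine and mast cells, was high in pDCs (222 and 165) and NK cells (148 and 156), which were not told apart by the test (0.33, adjusted p = 0.338). It was lowest in B cells (25.5, 16.9 and 19.4), and the cDC arrays lay between 49.3 and 64.9. pDCs exceeded cDCs by 1.82 ± 0.23 (adjusted p = 9.19e-05), and 2 further probe sets gave 2.16 and 2.02 for the same comparison. The difference of DCs from lymphocytes, 0.70 ± 0.15 (adjusted p = 0.00187), was not seen with those probe sets (-0.23 and -0.18, adjusted p = 0.195 and 0.501). Rab3a, of synaptic vesicle release, was highest in CD8 T cells (200.2 and 303), with 146 and 107 in NK cells. Without the 3 arrays that went against their labels, the lower level in DCs than in lymphocytes was not called (-0.25, adjusted p = 0.342). The CD8 T cell arrays were above all others, but the call that set them above each other population was kept under 9 of 28 alternative settings. Its second probe set, which reached 50 in no population, gave 0.50 (adjusted p = 0.0464) for B cells minus NK and CD8 T cells, opposite to the first (-1.25), whose own call was lost without the 3 arrays that went against their labels (-0.58, adjusted p = 0.217). Rab23, of Hedgehog signalling, had 58 and 54.6 in CD8 T cells and at most 35.6 elsewhere, and NK minus CD8 T cells gave -1.49 ± 0.23 (adjusted p = 0.000577). The 3′ to 5′ GAPDH ratios of the NK arrays were the highest of all, and their part in the NK signals was not tested.

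**Figure D4:**
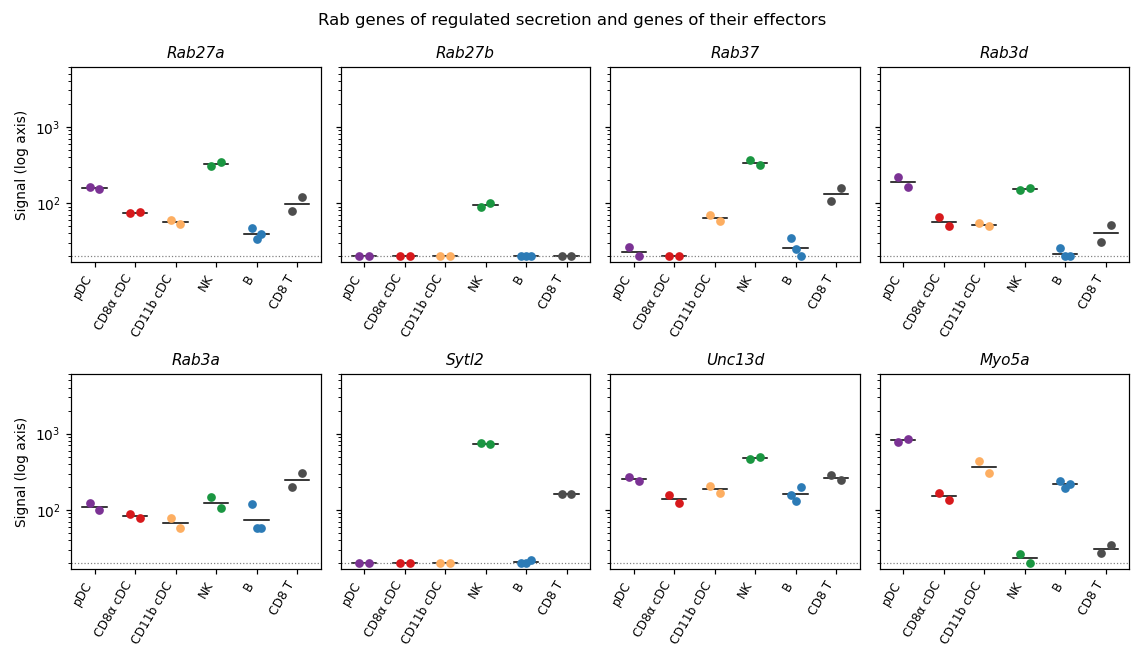
Signals of 5 secretory Rab genes and of 3 genes of their effectors on the 13 arrays (points, log axis, floor at the dotted line) with the geometric mean of each population (bar). NK cells are highest for Rab27a, Rab27b, Rab37, Sytl2 and Unc13d, and pDCs for Myo5a.

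For 3 widely expressed genes the probe sets went apart, so their direction is uncertain. The probe set used for Rab11b gave 0.20 between DCs and lymphocytes (adjusted p = 0.25), whereas its 2 others gave -1.17 and -0.82 and passed the test. For Rab22a the probe set used gave 0.01, and its 3 others between -0.94 and -1.31, all past the test. For Rab6a the probe set used gave -0.13, and its 2 others gave -1.09 and -0.36, both past the test.

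Genes that switch Rab proteins on and off, and those that act with them, varied as well. The lists were written from background knowledge: genes of GDI, REP and prenyl transfer, which keep Rab proteins soluble and attach their lipid, exchange factors, GTPase-activating proteins, and effectors of endosomal and of secretory Rab proteins. Of the 6 detected genes of the first list, 2 were higher and 2 lower in DCs than in lymphocytes. Of the 27 detected exchange factor genes 9 were higher and 9 lower, of the 30 GTPase-activating protein genes 13 and 9, of the 20 endosomal effector genes 6 and 5, and of the 4 secretory effector genes 1 and 3, beside 31.3 and 32.3% of all genes. The median difference of DCs from lymphocytes was -0.09, -0.10, 0.08, 0.15 and -1.37 in the 5 lists.

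Among the genes of GTPase-activating proteins, Tbc1d8 had the largest difference. It had 2249 and 2494 in pDCs, 2524 and 2169 in CD8α cDCs, 1794 and 1604 in CD11b cDCs, 23.6, 1.82 and 0.951 in B cells, 1.02 and 11.2 in NK cells, and 3.85 and 10.2 in CD8 T cells, so that all DC arrays were at 1604 or more and no lymphocyte array exceeded 23.6 (6.70 ± 0.09, adjusted p = 1.13e-11). Tbc1d9 and Tbc1d4 were higher in cDCs than in pDCs. Tbc1d9 had 1457 and 1426 in CD8α cDCs and 1552 and 1186 in CD11b cDCs, against 13 and 27.4 in pDCs (-5.90 ± 0.26, adjusted p = 2.91e-08 for pDCs minus cDCs). Tbc1d4, which controls the Rab proteins of glucose transporter vesicles, had 848 and 644 in CD8α cDCs and 2373 and 2097 in CD11b cDCs, and 53.5 and 92.6 in pDCs (-4.19 ± 0.24, adjusted p = 2.31e-07). Rabgap1l and Evi5 were higher in pDCs, by 3.28 ± 0.29 (adjusted p = 6.76e-06) and 2.56 ± 0.17 (adjusted p = 7.47e-07), and Tbc1d2b was highest in NK cells (486 and 531) and lowest in B cells (30.6, 19.2 and 22.5).

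Exchange factor genes marked single populations in both directions. Dennd5a was higher in DCs by 2.39 ± 0.13 (adjusted p = 7.54e-08), with all DC arrays at 1257 or more and no lymphocyte array above 671. Dennd5b had 416, 255 and 225 in B cells and at most 36.5 elsewhere, and Als2cl, whose product belongs to the family of Rab5 exchange factors, had 695 and 690.2 in CD8 T cells and 29 and 3.31 in NK cells. Rgp1, part of the exchange factor for Rab6, had 681 and 895 in pDCs and at most 327 elsewhere, a difference of 2.27 ± 0.22 (adjusted p = 1.51e-05) between pDCs and cDCs. The cDC subsets went apart for Dennd3, an exchange factor for Rab12, with -3.05 ± 0.23 (adjusted p = 4.17e-06), and for Dennd2d, with 3.04 ± 0.32 (adjusted p = 4.55e-05). Hps1 and Hps4, which together form the exchange factor for Rab32 and Rab38 and are named after their values were seen, had smaller differences. Hps4 had 489.9 and 303 in CD8α cDCs and 171 and 186 in CD11b cDCs, which did not pass the test (1.11 ± 0.36, adjusted p = 0.0542), and Hps1 differed by -0.39 ± 0.21 (adjusted p = 0.251).

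Among effector genes, those that bind Rab11 ran in opposite directions in pDCs and cDCs. Rab11fip5 had 277 and 292 in pDCs and at most 73.2 elsewhere (2.42 ± 0.24, adjusted p = 1.39e-05 for pDCs minus cDCs), whereas Rab11fip4 had 236 and 184 in CD8α cDCs, 132 and 132 in CD11b cDCs and 20.5 and 21.3 in pDCs (-2.99 ± 0.15, adjusted p = 5.79e-08). Rilpl1 had 545 and 449 in pDCs and at most 33 elsewhere (4.56 ± 0.21, adjusted p = 3.92e-08). Of the secretory effectors, Sytl2, which links Rab27 to the membrane, had 758 and 724 in NK cells, at most 21.8 in B cells and DCs, and 162 and 162 in CD8 T cells, with -4.08 ± 0.11 (adjusted p = 4.72e-10) for B cells minus NK and CD8 T cells. Unc13d, which primes cytotoxic granules for release, was detected on all arrays and highest in NK cells (459.9 and 492), with 0.84 ± 0.23 (adjusted p = 0.0157) for NK minus CD8 T cells. Myo5a, the myosin that carries organelles marked by Rab27a in pigment cells, went another way, with 777 and 854 in pDCs, 27.3 and 35.1 in CD8 T cells and 26.6 and 18.2 in NK cells (2.73 ± 0.13, adjusted p = 2.08e-08 for DCs minus lymphocytes).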

How the data were processed

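The authors extracted RNA from sorted spleen cells, amplified it in 2 rounds and hybridised it to Affymetrix whole-genome mouse arrays. The deposited intensity values are linear MAS5 signals that the authors scaled to a target of 100, with no floor. The annotation names 1 gene for 34958 of the 45101 probe sets, several for 932 and no gene for 9211. All 59 Rab genes (132 probe sets, 21 genes with 1 probe set) matched RefSeq by gene ID. The 9380 genes with a signal of at least 50 on all replicates of a population were kept, signals were floored at 20 and log2 transformed, and limma 3.58.1 in R 4.3.3 fitted 6 population means (7 residual degrees of freedom). Each test was two-sided. A population stood above each of the others when it was higher in every pairwise test with an adjusted p under the threshold. Each pairwise test was adjusted on its own over all genes tested. Precision is limited by the number of arrays.

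The Rab genes, the lists and the rule for named genes were chosen with earlier results of these data known. Genes named with values were the 16 with the widest span, up to 6 per comparison and direction, those with 1 population above the others, 5 that the study lists (Rab11a, Rab31, Rab32, Rab33b and Rab39), those whose probe sets disagree, and from the other lists the largest differences. Same-numbered replicates did not deviate together (correlations -0.199 to 0.184), and were not used to pair arrays. Alternatives were the normalization, floor, filter, variance model, probe set, blocks and arrays left out. The script was tested on simulated data.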

Additional observations from a re-analysis of the deposited data

How the results depend on the processing

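The same direction was kept by all 1796 values of single named genes that the alternatives gave, and 111 of them were no longer past the threshold, most often for Rab24 between the cDC subsets, Rab3a between NK and CD8 T cells and Rab4b in B cells. A gene that failed the filter in an alternative gave no value there, and its population counted as not kept. Further probe sets taken singly were not among these values, and those of Rab5b and Rab3a went the other way, as given above. Of 28 alternatives, Rab7b, Rab11a and Rab33b kept their population above the others in 28, Rab32, Rab37 and Rab27a in 27, Rab13, Rab39 and Rab27b in 26, Rab23 in 22, Rab5b in 12 and Rab3a in 9.

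Counts of Rab genes moved by over 1.5 times in these cases, of which the cause was not tested. No share of all genes is given beside them. NK cells were lower than CD8 T cells for 1 gene with quantile normalization, no floor, a floor of 50 or no filter, and for 4 with the mean of all probe sets or a term for the 2 kinds of sample name. They were higher for 6 with the mean of all probe sets and for 7 with the term for sample names, which also left 12 higher in DCs than in lymphocytes. Without a floor, 7 genes had 1 population above the others, pDCs were lower than cDCs for 8, and CD8α cDCs exceeded CD11b cDCs for 5. With a floor of 50, CD8α cDCs were lower for 1. A filter at 100 gave 7 genes with 1 population above the others, 4 lower in DCs and 3 higher in B cells. With the mean of all probe sets, 6 were lower in B cells. Without both CD8 T cell arrays, or without these and B cell replicate 2 (chosen after seeing the data), 3 were higher in B cells. With the replicate number as a block, 3 were higher in B cells, and no other count moved by as much.

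With each array left out in turn, the F test called 32 to 36 genes, 10 to 16 had 1 population above the others, and 43 to 44 reached 50. DCs were higher for 20 to 25 and lower for 6 to 9, pDCs higher than cDCs for 5 to 7 and lower for 11 to 14, CD8α cDCs higher than CD11b cDCs for 6 to 10 and lower for 1 to 3, B cells higher for 4 to 5 and lower for 8 to 12, and NK cells higher than CD8 T cells for 8 to 16 and lower for 1 to 3. Of these, the count lower in CD8α than in CD11b cDCs was 1 without CD8α cDC replicate 1 or CD11b cDC replicate 2, and NK cells were higher for 8 without CD8 T cell replicate 2. Signals near the floor limit every difference that involves them.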
